A study of Saccharomyces cerevisiae with 2 samples.

Results

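The mRNAs of fatty acid synthesis in Saccharomyces cerevisiae were examined for crosslinks of Dbp2p, a DEAD-box RNA helicase. They are FAS1, FAS2, ACC1, OLE1 and FAA1, and they make 5 of the 6002 annotated nuclear protein-coding genes. They were chosen by name for the pathway they encode, with earlier results of these data known. The method was iCLIP: UV irradiation crosslinks the protein to its RNA in living cells, and the place where reverse transcription ends gives the crosslinked nucleotide. Both came from whole cells of 1 strain, BTY140, with the genotype MATa his3Δ1 leu2Δ0 met15Δ0 ura3Δ0 DBP2-HTBH:kanMX6, grown at 30 °C in YPD medium to an OD600 of about 1.0 and irradiated before harvest. The tag on DBP2 was used for the affinity pull-down, both libraries carry it, and untagged or input controls were not used here. They form 1 group of 2 replicates, so no groups were compared and no p-value is given. Nothing in the labels says how the cultures were separated, and any spread below is the spread between these samples.

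Fatty acids are made in the yeast cytosol from acetyl-CoA. Acetyl-CoA carboxylase, Acc1, adds a carboxyl group to make malonyl-CoA, the extender unit and the controlled step of the pathway. Fatty acid synthase is a large barrel-shaped complex of the Fas1 beta subunit, which holds the transferase, dehydratase and enoyl reductase activities, and the Fas2 alpha subunit, which holds the acyl carrier, ketosynthase and ketoreductase. Ole1 then puts the double bond into the chain at the endoplasmic reticulum, and Faa1 joins free long-chain fatty acids to CoA. The chromosomes and coordinates below are those of assembly R64, which has the coordinates of sacCer3.

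All 5 mRNAs were listed in both replicates, against 37.4% of all protein-coding genes (45.0% in replicate 1 and 63.2% in replicate 2). With at least 2 positions asked for in each replicate, 4 of the 5 remained, all but FAA1, against 16.6% of all protein-coding genes. Replicate 1 held 8666 positions in all and replicate 2 held 18088, of which 36 and 158 lay under the 5 names. For each position the authors gave the share of the gene's signal found there, which sums to 1 in every gene. These shares were far coarser in replicate 1. There the smallest share in a member ran from 5.88% (OLE1) to 100% (FAA1), against 0.253% (FAS2) to 1.33% (FAA1) in replicate 2. The strongest positions of replicate 1 therefore rest on coarse shares. The reads behind a position are not given, so the depth of these values is unknown and the number of positions is the measure of how widely an mRNA was crosslinked. That number also depends on the abundance of the mRNA, which was not analysed here. Less crosslinking per mRNA and less mRNA cannot be told apart.

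FAS1 (YKL182W, chromosome XI, 100671 to 106826, reading frame of 6156 nt) had 9 positions in replicate 1 and 52 in replicate 2. FAS2 (YPL231W, chromosome XVI, 108652 to 114315, 5664 nt) had 6 and 51. ACC1 (YNR016C, chromosome XIV, reverse strand, 654673 to 661374, 6702 nt) had 9 and 14. These are among the long mRNAs of yeast. Of the 117 genes with a reading frame of at least 5000 nt, 56.4% were found in replicate 1 and 62.4% in replicate 2, against 45.0% and 63.2% of all protein-coding genes. Their median was 1 and 4 positions, against 0 and 1 over all genes. Within that set FAS1 and FAS2 ranked 1 and 2 in replicate 2, and 4 and 11 in replicate 1, where ACC1 shared rank 4. ACC1 ranked 16 in replicate 2.

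OLE1 (YGL055W, chromosome VII, 398628 to 400160, 1533 nt) had 11 positions in replicate 1 and 31 in replicate 2. FAA1 (YOR317W, chromosome XV, 909343 to 911445, 2103 nt) had 1 and 10. Over all 6002 genes OLE1 ranked 33 and 31 by number of positions. FAA1 was the least widely crosslinked member in each replicate. It ranked 1369 in replicate 1, level with all genes listed there with 1 position, and 265 in replicate 2. Its 10 positions in replicate 2 lay in 2 clusters of neighbours up to 5 nt apart, and by clusters it ranked 1395.

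Per kilobase of reading frame, with positions outside it left out, the 5 mRNAs together had 1.40 positions in replicate 1 and 6.59 in replicate 2. The other 5997 protein-coding genes together had 0.532 and 1.55 per kilobase. The ratio of the 5 mRNAs to the other genes was thus 2.63 in replicate 1 and 4.24 in replicate 2. OLE1 was the densest in each replicate, with 5.87 and 16.3 positions per kilobase. FAS1 had 1.14 and 8.28, FAS2 had 0.883 and 8.30, ACC1 had 1.34 and 1.94, and FAA1 had 0.476 and 4.76. Below OLE1 the order differed between the replicates, and ACC1 came second in replicate 1 and last in replicate 2.

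By the mean over replicates OLE1 came first with 11.1 ± 7.38 positions per kilobase (SD, n = 2). FAS1 followed with 4.71 ± 5.05, FAS2 with 4.59 ± 5.24, FAA1 with 2.62 ± 3.03 and ACC1 with 1.64 ± 0.422 (SD, n = 2 each). Each neighbouring pair in this order differed by less than the larger SD of the pair. Long reading frames keep the density of the FAS mRNAs below their rank by number. In replicate 2, 96.6% of all genes had a lower density than either FAS1 or FAS2, and 98.7% had a lower one than OLE1. In replicate 1 these shares were 83.7% for FAS1, 79.3% for FAS2 and 98.4% for OLE1. For ACC1 the share was 86.3% in replicate 1 and 76.5% in replicate 2.

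Positions often lay side by side in replicate 2, so positions up to 5 nt from the next were also counted as 1 cluster. FAS1 then had 9 clusters in replicate 1 and 20 in replicate 2, FAS2 had 6 and 16, ACC1 had 9 and 10, OLE1 had 9 and 12 and FAA1 had 1 and 2. Counted in this way, the 5 mRNAs had 1.31 and 2.44 clusters per kilobase and the other genes 0.495 and 0.971. Their ratio was 2.64 in replicate 1 and 2.51 in replicate 2. The positions of the 5 mRNAs were 4.39 times as many in replicate 2 as in replicate 1, against 2.61 times in the other genes, while the clusters were 1.76 and 1.79 times as many. The higher ratio by positions in replicate 2 therefore went with more positions per cluster, 2.63 in the 5 mRNAs and 1.63 in the other genes, and in replicate 1 these were 1.06 and 1.12.

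**Figure D1:**
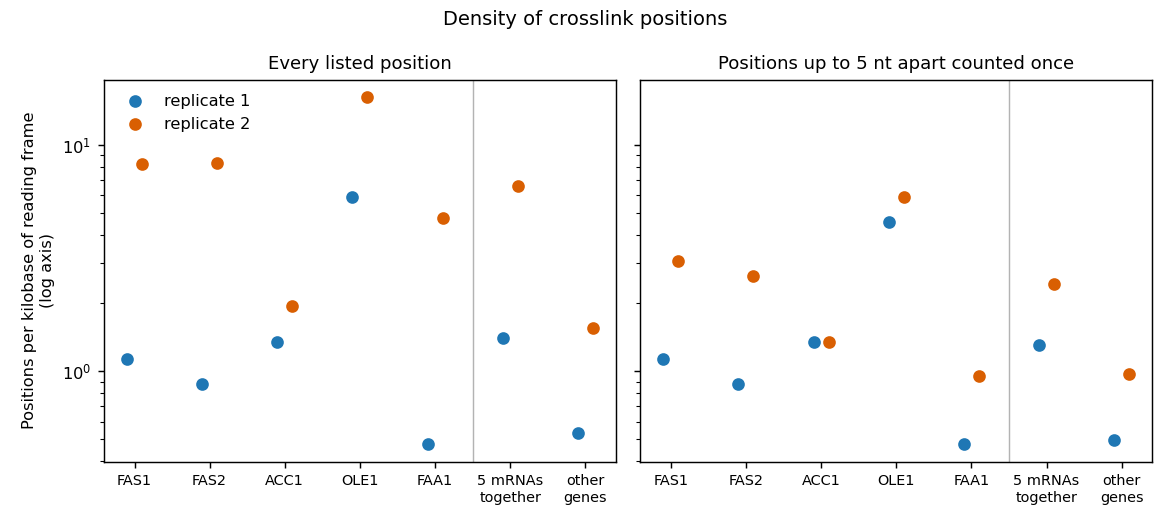
Crosslink positions per kilobase of reading frame (log axis) in replicate 1 (blue) and replicate 2 (orange), for each mRNA, the 5 mRNAs together and the other 5997 protein-coding genes together. The left panel counts every position and the right panel counts positions up to 5 nt apart once, where the 5 mRNAs had 1.31 and 2.44 per kilobase and the other genes 0.495 and 0.971.

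Some other metabolic mRNAs were denser. PMA1, which encodes the plasma membrane proton pump, had a density of 10.2 in replicate 1 and 28.3 in replicate 2. The lower glycolysis mRNAs PGK1, GPM1, ENO1, ENO2 and CDC19 together had 18.1 and 57.0. OLE1, the densest member, lay below both in each replicate. The 5 genes of at least 1500 nt nearest in density to the 5 mRNAs as a set, by distance of log2(positions per kilobase + 0.5) over the 2 replicates and among 2243 genes, were UGP1, HAS1, DED1, DED81 and PFK1. They had 1.20 to 1.69 positions per kilobase in replicate 1 and 5.93 to 6.75 in replicate 2. UGP1 encodes UDP-glucose pyrophosphorylase, HAS1 and DED1 encode DEAD-box helicases, DED81 encodes a tRNA synthetase and PFK1 encodes a subunit of phosphofructokinase.

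The signal of FAS1 lay in different stretches in the replicates. In replicate 1 the strongest positions were 2 nucleotides upstream of the start codon, 227 and 142 nt before it (coordinates 100444 and 100529), with 21.4% of the signal each. The other 7 positions were spread over the reading frame at nucleotides 1185 to 5830, with 7.14% each except for 14.3% at nucleotide 4355. In replicate 2 the strongest was nucleotide 5152 (coordinate 105822), in codon 1718, with 9.49%. It belonged to a group of 21 positions between nucleotides 5095 and 5294 that held 46.8% of the signal, and replicate 1 had no position within that stretch. Replicate 2 also had a cluster on the start codon itself, from 3 nt before the ATG to its last base, with 11.9% of the signal.

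These are the clusters of FAS1 with the most signal in replicate 2 and the cluster at its start codon, shown for the spacing of their letters. The strongest nucleotide is in capitals, the other listed nucleotides are in lower case and n stands for a nucleotide with no listed position in that replicate.
FAS1 nucleotides 5095 to 5106, chr11:105765-105776, forward strand: Anngacacntat
FAS1 nucleotides 5152 to 5158, chr11:105822-105828, forward strand: Acnattc
FAS1 nucleotides 5287 to 5294, chr11:105957-105964, forward strand: Acntttng
FAS1 cluster at the start codon, chr11:100668-100673, forward strand: Annatg
The first 3 held 19.0%, 13.9% and 13.9% of the FAS1 signal. In each of the 4 the strongest nucleotide was the one nearest the 5′ end, and it was an A. In the cluster at the start codon the last 3 letters are the ATG.

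FAS2 had all 6 positions of replicate 1 at the same share, 16.7%. They lay 9 nt before the start codon and at nucleotides 878, 947, 1930, 2914 and 4966. In replicate 2 no share passed 10.9%, which was reached at nucleotide 446 (coordinate 109097, codon 149), and nucleotide 1985 followed with 10.4%. Clusters were found from there to 35 nt past the stop codon, and the cluster past the stop, at 30 to 35 nt, held 6.08% of the signal. Its signal was the most evenly spread of the 5 mRNAs in replicate 2, since the fullest window of 200 nt held 18.2%, against 46.8% to 50.7% in the other 4.

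The FAS2 clusters shown next are the 4 with the most signal, and they differ from those of FAS1 in the leading base.
FAS2 nucleotides 446 to 454, chr16:109097-109105, forward strand: Tantgtnnc
FAS2 nucleotides 4289 to 4296, chr16:112940-112947, forward strand: Gnnaacnc
FAS2 nucleotides 3786 to 3791, chr16:112437-112442, forward strand: Gnnccg
FAS2 nucleotides 3074 to 3079, chr16:111725-111730, forward strand: Cngaag
They held 18.2%, 14.4%, 11.6% and 11.1% of the FAS2 signal in replicate 2. None of these leading nucleotides was an A. Over all FAS2 positions of replicate 2, A carried 15.9% of the signal and T 33.7%, while in FAS1 A carried 60% and T 20.7%. Replicate 1, with 6 positions in FAS2 and 9 in FAS1, had the opposite order. There A carried 66.7% of the signal in FAS2 and 50% in FAS1, and T carried 0% and 35.7%.

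ACC1 had 9 positions with the same share, 11.1%, in replicate 1. Of these, 4 lay near the start of the reading frame, at nucleotides 66, 78, 181 and 289, and with nucleotide 782 they held 55.6% of the signal. In replicate 2 the first position inside the reading frame was nucleotide 814. A cluster there (codon 272) held 22.2% of the signal, and one at nucleotide 3526 (coordinate 657849, codon 1176) held 45.7%, of which 33.3% was at its first nucleotide. Replicate 1 had its nearest positions at nucleotides 782 and 3588, 32 and 57 nt from those clusters. A further 12.3% was listed 309 nt upstream of the start codon, at coordinate 661683, where no other gene is annotated.

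The ACC1 and FAA1 clusters are shown together because they carry most of the signal of these mRNAs in replicate 2. The ACC1 letters are those of the RNA, written 5′ to 3′, from the reverse strand.
ACC1 nucleotides 3526 to 3531, chr14:657844-657849, reverse strand: Anntng
ACC1 nucleotides 814 to 819, chr14:660556-660561, reverse strand: Anngnt
FAA1 nucleotides 638 to 643, chr15:909980-909985, forward strand: Aangtg
FAA1 nucleotides 8 to 13, chr15:909350-909355, forward strand: Cncaat
Both FAA1 clusters of replicate 2 are in this list, and they held 49.3% and 50.7% of its signal, the second in codons 3 to 5. In replicate 1 the whole FAA1 signal was at nucleotide 1713 (coordinate 911055), an A in codon 571. That nucleotide is 1070 nt from the nearest position of replicate 2.

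OLE1 was the mRNA with the shortest median distance between the replicates, 18 nt. The strongest nucleotide was 654 in replicate 1, level with nucleotide 1233 at 17.6% each, and 635 in replicate 2, with 21.6% (coordinates 399281 and 399262). Nucleotide 635 is 19 nt from nucleotide 654 and 598 nt from nucleotide 1233. In FAS1 the strongest nucleotides of the replicates were 5293 nt apart or more, and in FAA1 they were 1075 nt apart. FAS2 and ACC1 had no strongest nucleotide in replicate 1, where all their shares were equal. With the reading frame cut into 3 equal parts, the middle part held 52.9% of the OLE1 signal in replicate 1 and 62.1% in replicate 2. OLE1 also had positions beyond both ends in each replicate, at 48 and 32 nt before the start codon. Past the stop codon there was 1 at 59 nt in replicate 1 and there were 5 at 166 to 198 nt in replicate 2, with 5.88% and 16.3% of the signal.

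The OLE1 clusters around its strongest nucleotides are shown for their closeness, with the cluster past the stop codon of replicate 2 beside them.
OLE1 replicate 1, nucleotides 654 to 658, chr7:399281-399285, forward strand: Angnt
OLE1 replicate 2, nucleotides 635 to 640, chr7:399262-399267, forward strand: Annacg
OLE1 replicate 2, past the stop codon, chr7:400326-400331, forward strand: Anntta
The first of these was the only cluster of more than 1 position among the 5 mRNAs in replicate 1, and it held 35.3% of the OLE1 signal there. The second held 30.7% and the third 15.7% in replicate 2.

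**Figure D2:**
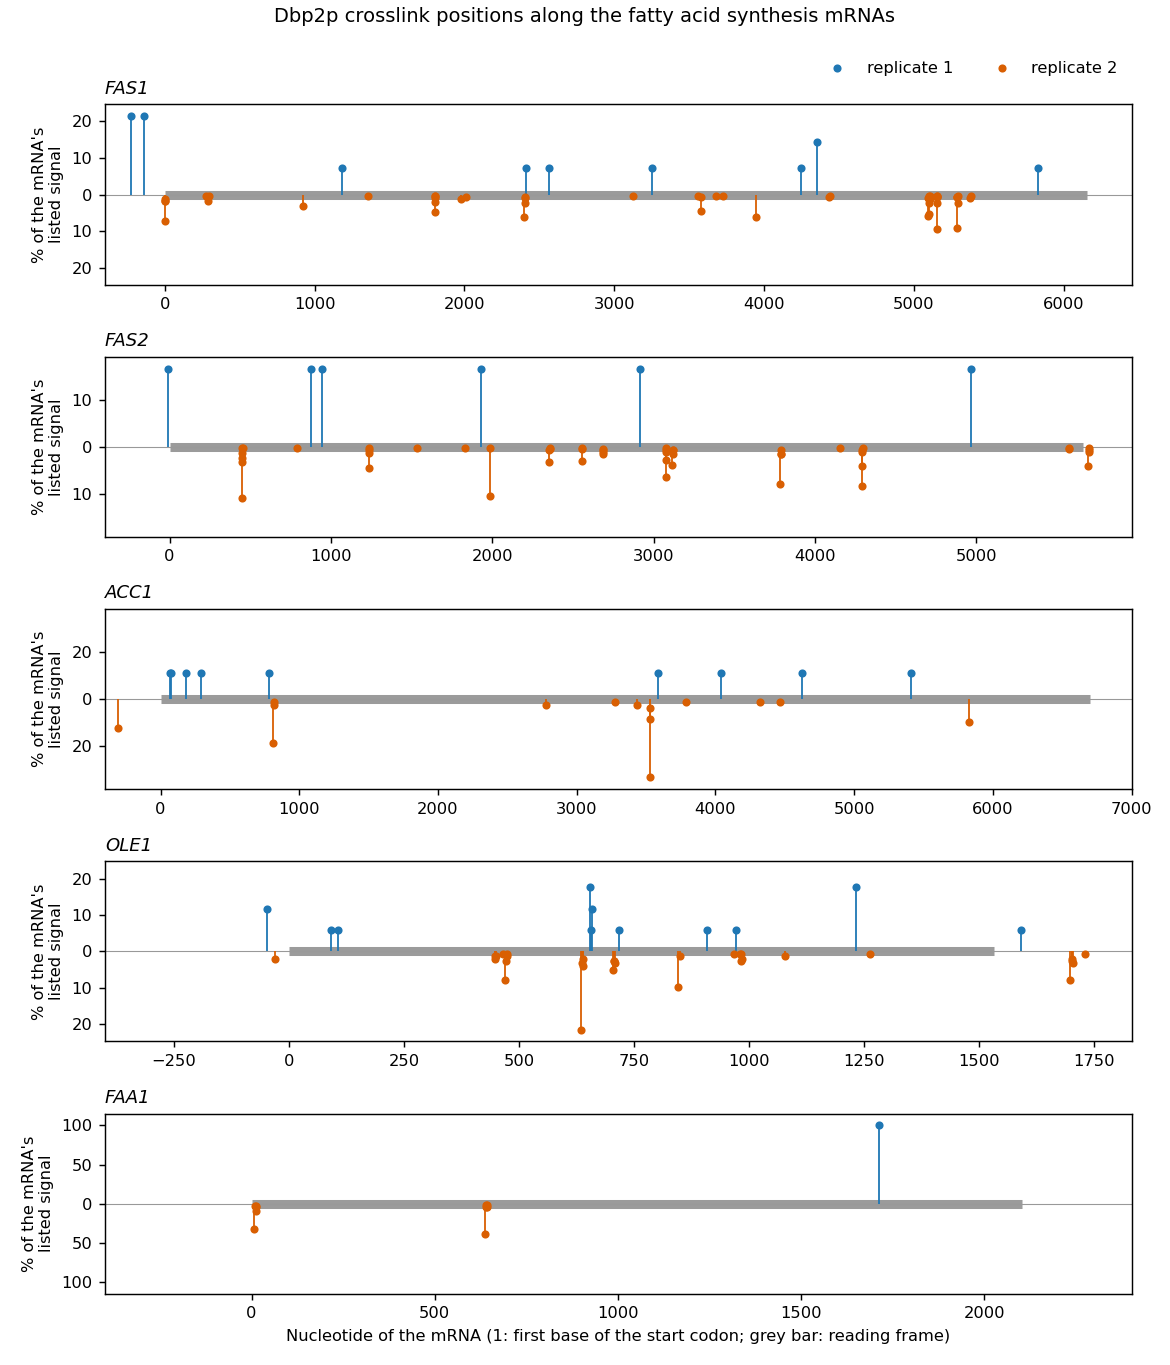
Share of each mRNA's listed signal (%) at each crosslink position, with replicate 1 above the line (blue) and replicate 2 below it (orange), against the nucleotide of the mRNA counted from the first base of the start codon. The grey bar is the reading frame, and the scales differ between panels. The stretch from 5095 to 5294 of FAS1 holds 46.8% of the replicate 2 signal, and OLE1 nucleotide 635, the strongest in replicate 2, is 19 nt from 654, 1 of 2 tied for strongest in replicate 1.

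Over the reading frames of the 5 mRNAs the positions were not gathered at one end. With each frame cut into 3 equal parts, the first, middle and last part held 10, 13 and 8 of 31 positions in replicate 1, and 49, 57 and 40 of 146 in replicate 2. The last part thus held 25.8% in replicate 1 (95% exact binomial interval 11.9 to 44.6) and 27.4% in replicate 2 (20.3 to 35.4). In the other protein-coding genes it held 29.8% and 33.4%, inside those intervals. In replicate 2 the last part held 25 of 51 FAS1 positions, 12 of 47 in FAS2, 1 of 13 in ACC1, 2 of 25 in OLE1 and 0 of 10 in FAA1. The FAS1 count rests on clusters of many positions, and with each cluster counted once the last part held 5 of 19 in FAS1, 4 of 15 in FAS2, 1 of 9 in ACC1, 2 of 9 in OLE1 and 0 of 2 in FAA1. The intervals in this text cover counting error and treat positions as independent, which neighbouring positions of a cluster are not.

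Positions outside the reading frame were 5 of 36 in replicate 1 and 12 of 158 in replicate 2. Upstream of the start codon lay 11.1% and 1.90% of positions, against 7.94% and 5.56% in the other genes. Downstream of the stop codon lay 2.78% and 5.70%, against 16.8% and 10.1% in the other genes. The reading frames came to 22.2 kb over the 5 mRNAs and to 8838 kb over the other 5997 genes. A longer frame by itself lowers the share of positions outside it, and the part of length in these contrasts was not tested. The annotation gives no untranslated regions, and none of the 194 positions lay on another annotated gene. Codon positions were used alike, with 11, 11 and 9 positions at the first, the second and the third base of a codon in replicate 1 and 51, 49 and 46 in replicate 2.

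Within the clusters of replicate 2 the positions had a regular order. Of 33 clusters with at least 2 positions, the nucleotide nearest the 5′ end held the highest share, alone or tied, in 30. The later positions were mostly 3 to 5 nt downstream of it, with 26 at 3 nt, 23 at 4 nt and 25 at 5 nt of 98 in all, or 75.5% (95% exact binomial interval 65.8 to 83.6). At 1 or 2 nt there were 12. The other protein-coding genes had the same order in replicate 2, with the first nucleotide strongest in 88.5% of 2426 clusters and 67.8% of 6285 later positions at 3 to 5 nt. In replicate 1 the other genes had 33.4% of 649 later positions at 3 to 5 nt and 49.9% at 1 or 2 nt, and the 5 mRNAs had 2 later positions, both in OLE1. The spacing in the 5 mRNAs was thus shared by the other genes of the replicate 2 library. With neighbours allowed up to 10 nt apart the share in the 5 mRNAs was also 75.5%.

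**Figure D3:**
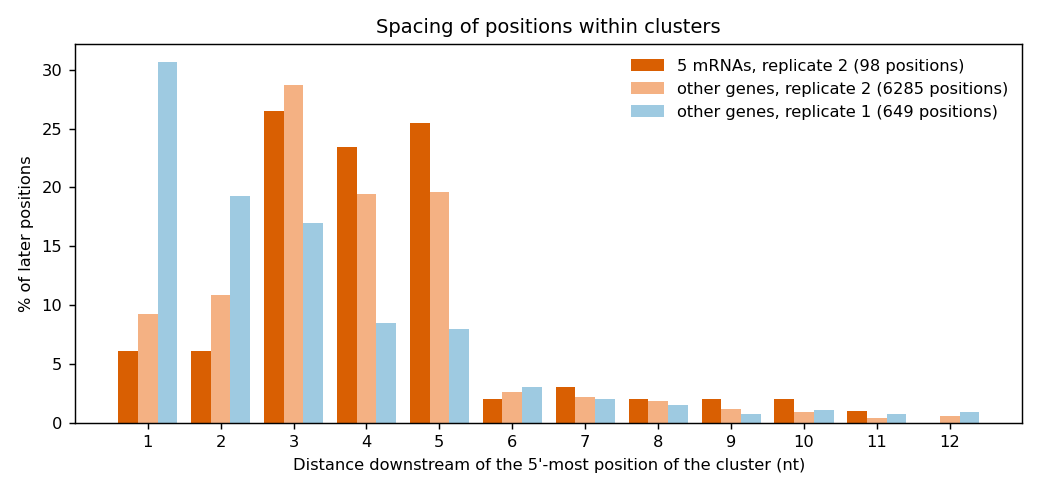
Distance of the later positions of a cluster from its 5′-most position (nt), as a percentage of all later positions, in the 5 mRNAs in replicate 2 (dark orange) and in the other protein-coding genes in replicate 2 (light orange) and replicate 1 (light blue). Distances of 3 to 5 nt make up 75.5% in the 5 mRNAs and 67.8% in the other genes in replicate 2, and 33.4% in the other genes in replicate 1.

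By base, A and T (the U of the RNA) made up most positions. In replicate 1, 20 of 36 positions were A, 9 T, 6 G and 1 C, and in replicate 2, 51 of 158 were A, 51 T, 27 G and 29 C. The share of A was 55.6% in replicate 1 (95% exact binomial interval 38.1 to 72.1) and 32.3% in replicate 2 (25.1 to 40.2), against 49.0% and 39.6% in the other genes. For T it was 25% (12.1 to 42.2) and 32.3% (25.1 to 40.2), against 31.4% and 29.3%. The base at the 5′ end of a cluster differed from the later ones in replicate 2. Of 60 such leading positions, counting lone positions as their own cluster, 45.0% were A, 31.7% T, 10% G and 13.3% C, and of the 98 later ones 24.5% were A, 32.7% T, 21.4% G and 21.4% C. In the other genes A made up 45.6% of leading and 29.9% of later positions in replicate 2. No genome was used here, so these shares are not set against the base composition of the mRNAs.

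No nucleotide of the 5 mRNAs was listed in both replicates. The count was 0 of 36 replicate 1 positions, which allows a share of up to 8.33%, and 0 of 158 replicate 2 positions, which allows up to 1.90%. In the other protein-coding genes listed in both replicates, 232 nucleotides were listed in both, which is 4.17% of their 5558 replicate 1 positions and 1.91% of their 12118 replicate 2 positions. The share of replicate 1 positions in the other genes was within both the limit and the exact interval. That of replicate 2 was just past the limit but inside the exact interval. Within 5 nt there were 2 replicate 1 positions with a partner, 5.56% (95% exact binomial interval 0.680 to 18.7), against 10.7% in the other genes. They were nucleotide 2409 of FAS1, 4 nt from nucleotide 2405, and nucleotide 972 of OLE1, 5 nt from nucleotide 967.

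Counted from replicate 2, partners were fewer in the 5 mRNAs than in the other genes. Within 5 nt, 3 of 158 positions had one, 1.90% (95% exact binomial interval 0.393 to 5.45), against 7.25% in the other genes. Within 25 nt the share was 11.4% (6.89 to 17.4), against 18.0%, and within 100 nt it was 20.3% (14.3 to 27.4), against 37.6%. The value of the other genes lay above the exact interval at each distance examined from 1 nt up. At 0 nt it was 1.91%, just past the limit of 3 counts but inside the exact interval, which reaches 2.31%. Neighbouring positions of a cluster are not independent, and with each cluster counted once the replicate 2 shares were 1.67% within 5 nt (0.0422 to 8.94), against 4.41%, and 10% within 25 nt (3.76 to 20.5), against 12.6%. Within 100 nt they were 21.7% (12.1 to 34.2), against 30.3%. Counted in this way, the 5 mRNAs had the lower share at each distance, with the value of the other genes inside their interval. A partner is also likelier where the replicate 1 positions of a gene are dense, and these shares do not allow for that.

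Counted from replicate 1, 7 of 36 positions had a partner within 25 nt (19.4%, interval 8.19 to 36.0, against 21.3% in the other genes), and 6 of the 7 were in OLE1. Within 100 nt there were 14 (38.9%, interval 23.1 to 56.5, against 42.2%), of which 8 were in OLE1 and 2 each in FAS1, FAS2 and ACC1. The median distance from a replicate 1 position to the nearest of replicate 2 was 18 nt in OLE1, 159 nt in FAS1, 160 nt in FAS2 and 374 nt in ACC1. OLE1 also had the densest positions, and the part of that density in the short distances was not tested.

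**Figure D4:**
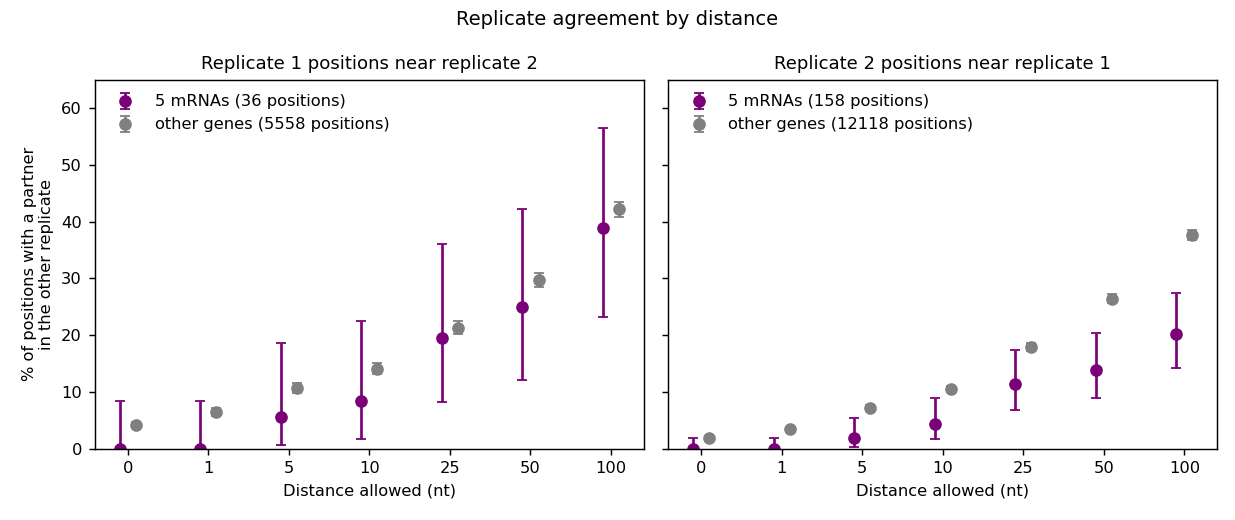
Share of positions (%) that have a position of the other replicate in the same gene within the distance on the horizontal axis (nt), for replicate 1 positions (left) and replicate 2 positions (right), in the 5 mRNAs (purple) and in the other protein-coding genes listed in both replicates (grey). Bars are 95% exact binomial intervals, and at 0% they end at the limit of 3 counts. The grey values lie inside the purple bars on the left and above them on the right, where for example 20.3% stands against 37.6% within 100 nt. At 0 nt on the right the grey value, 1.91%, is inside the exact interval, which reaches 2.31% and is not drawn.

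Other genes of lipid metabolism were counted in 8 lists. Of these 74 genes, replicate 1 listed 40 and replicate 2 listed 52, where the shares of all protein-coding genes were 45.0% and 63.2%. Common to both were 34 of the 74 (45.9%), against 37.4% of all protein-coding genes. Their median was 1 position in each replicate, against 0 and 1 over all genes and 9 and 31 in the 5 mRNAs. The share listed is near that of all genes, and no test was made of the lists.

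Of the 5 genes that supply acetyl-CoA or cofactors, 3 were listed in both replicates (60%, against 37.4% of all genes). HFA1, the mitochondrial acetyl-CoA carboxylase and the copy of ACC1, had 3 and 6 positions. BPL1, the ligase that attaches biotin to Acc1, had 1 and 9, and ACS2, the acetyl-CoA synthetase used on glucose, had 1 and 7. Counted from each annotated start, no position of ACC1 had the same nucleotide number as one of HFA1. The same held for FAA1 with FAA2, FAA3 and FAA4. The copies were not aligned, their reading frames differ in length and their positions are few, so this count does not test for shared sites. FAA4, the acyl-CoA synthetase that overlaps with FAA1 in function, had 3 positions in each replicate, and FAA2 and FAA3 had 0 and 1 each. In the list of acyl-CoA enzymes the transporter FAT1 had 1 and 3 and the acyl-CoA binding protein gene ACB1 had 1 and 1.

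For the elongation of fatty acids 3 of 6 genes were in both replicates (50%, against 37.4% of all genes), led by the elongase genes ELO3 (1 and 6 positions) and ELO2 (3 and 1) and by the reductase gene TSC13 (2 and 1). The mitochondrial pathway also had 3 of 6 in both (50%), MCT1 (4 and 2), ETR1 (1 and 2) and CEM1 (3 and 1). Of the 9 beta-oxidation genes, which act in the breakdown of fatty acids and are low on glucose, 8 were listed in neither replicate (88.9%, against 29.2% of all genes), and the exception was ECI1 with 2 and 1 positions. Among 9 regulators, 4 were in both (44.4%, against 37.4% of all genes). REG1, a subunit of a glucose-repression phosphatase, had 2 and 11, PIP2, an activator of the oleate response, had 1 and 10, and SPT23, an activator of OLE1 transcription, had 5 and 4.

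Later steps had 5 of 12 phospholipid and sphingolipid genes in both replicates (41.7%, against 37.4% of all genes). The glycerol phosphate acyltransferase gene SCT1 led with 3 and 13 positions, and the serine palmitoyltransferase genes LCB2 and LCB1 had 1 and 5 and 3 and 3. Of the 22 ergosterol genes, 13 were found in replicate 1 and 21 in replicate 2, against 45.0% and 63.2% of all genes. In both replicates there were 12, a share of 54.5% against 37.4% of all genes. The leading genes of this list were ERG1, squalene epoxidase, with 3 and 16 positions, and ERG10, acetoacetyl-CoA thiolase, with 3 and 11. ERG3, a sterol desaturase, had 4 and 7. None of the 74 had more than 5 positions in replicate 1 or 16 in replicate 2. FAS1, FAS2, ACC1 and OLE1 had 6 to 11 and 14 to 52. ACC1, with 14, lay within the range of the lists in replicate 2, and FAA1, with 1 and 10, in both replicates. These counts do not allow for length. Per kilobase the median was 0 and 0.894 over the 74 genes and 1.14 and 8.28 in the 5 mRNAs. In replicate 2, however, the ergosterol gene ERG25 had 14.0, ERG1 had 10.1 and ERG10 had 9.19, above every member but OLE1. In replicate 1 genes of several lists lay above every member but OLE1. AUR1, of the later steps, had 3.32, ELO2 2.87, MCT1 2.77 and ERG10 2.51, and ACC1, the next member, had 1.34.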

How the data were processed

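The authors deposited 1 table per iCLIP replicate, which lists nucleotides with their base, gene and a value headed normalized counts. Tested on the tables, each value is a fraction of its gene's signal, and the deposited fractions sum to 1 within 1e-06 in every gene. They were used within a gene only, and no read count was inferred. The submitters' processing notes name CASAVA, TopHat and sacCer3, with no version. The handling of duplicate cDNAs and of reads that map to several places, and any minimum, are not given in the sources used here. Names were matched to a RefSeq table of assembly R64, and 3 of 4336 stayed unmatched. All 194 positions of the 5 mRNAs were on the strand of the gene. Listed bases are those of the RNA: 58 of 58 in start codons fitted ATG, 26 of them on the reverse strand.

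Positions, clusters (neighbours up to 5 nt apart), bases and distances were counted with Python 3.11.15, numpy 2.4.6, pandas 2.3.3 and scipy 1.17.1, drawn with matplotlib 3.10.9 and tested on simulated positions. The upper limit for a count of 0 is 3 counts of the total. Genes were named by rule: the 5 members, at most 3 genes a list by the worse rank of the replicates, copies of members, and the 5 genes nearest in density. AUR1 and ERG25 were added later, each as the densest list gene of a replicate. Members and lists were chosen with earlier results of these data known, and the clusters, the length limit of 5000 nt and the windows of 200 nt after the positions were seen.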

Additional observations from a re-analysis of the deposited data

How the results depend on the processing

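The density of the 5 mRNAs averaged 3.99 positions per kilobase over the replicates and ranged from 1.40 to 6.59 when 1 replicate was left out. With positions within 5 nt counted once it was 1.87. Each alternative tried moved it by less than the SD between replicates, 3.67, but that SD is near the mean itself. Leaving out 1 of 2 replicates must also move a mean by less than their SD. Staying below the SD therefore does not show that the density is stable. The share of positions in the last of 3 equal parts of the reading frame, 26.6%, became 30.9% when weighted by signal, 24.9% with positions within 5 nt counted once and 29.7% without the lowest values. It was 25.8% to 27.4% when 1 replicate was left out. The weighted value hid opposite replicates, 42.7% in replicate 1 and 19.1% in replicate 2, and replicate 1 includes FAA1, whose 1 position lies in that part. The share on T, 28.6% (25% to 32.3% when 1 replicate was left out), was 20.5% when weighted by signal. The cause of that shift was not tested. Of the 74 lipid genes, 34 were listed in both replicates and 13 with at least 2 positions in each, against 37.4% and 16.6% of all genes, a fall that the stricter rule itself brings. Leaving out FAS2 or OLE1, the other anchor for clusters and the cluster-wise distances between replicates were added after seeing the data. No paired analysis was possible because the samples form 1 group. The unknown depth limits every value, and FAS2 and ACC1 in replicate 1 rest on 6 and 9 positions of equal share.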
